A study of Mus musculus with 48 samples.

Results

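The comparison below sets P19 cells given Activin for 8 h against untreated P19 cells, both assayed by ATAC-seq, in which a transposase cuts accessible chromatin and a region of many cuts is called as a peak. P19 cells are a mouse embryonic teratoma line that resembles pluripotent cells. The 8 h cells had first been kept overnight in SB-431542, an inhibitor of the NODAL/Activin type I receptors, which was washed out with PBS before Activin was added in full medium at 20 ng/ml. The untreated cells had no added ligand and no inhibitor at any time, and signal through the NODAL and GDF3 that they make themselves. Both states therefore signal, and they differ in the added Activin and in the preceding inhibition, which cannot be told apart here. The other states of the series, 10 µM SB-431542 and Activin for 1 h after the same inhibition, are given beside them as levels. The labels name 48 libraries of 100000 cells per reaction, 12 in each of the 4 states as 6 libraries from each of 2 biological replicates, so 24 belong to this comparison. The deposited data are 1 list of broad peaks per state, each merged from both replicates. There is no spread between replicates, no difference below was tested, and all differences are those between 2 merged lists of 1 cell line.

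Merging the lists gave 242413 regions with a peak at 8 h, in untreated cells or in both, of 287329 regions in all 4 lists. A region was shared when peaks of both lists overlapped, and 182940 regions were. A further 23876 regions had a peak at 8 h only, 9.85% of all, and 35597 had one in untreated cells only, 14.7%. With both lists taken at equal length, by their strongest peaks, the counts were 28057 and 29104. With peaks of −log10 q of at least 5 only, a measure explained below, they were 12541 and 20604. The excess in untreated cells thus depended on how the lists were cut. The values compared are the fold enrichment of a peak, its pileup of cuts over the local background as MACS2 wrote it, and its width. Fold enrichment is relative to the local background, so the pileup itself, estimated from a peak's fold enrichment and p-value, is given beside it at some genes. Each peak also has a −log10 q, the strength of the call against that background. The log2 ratio of fold enrichment, 8 h over untreated, was centred on its median over all shared regions, which was 0.01 before centring. Regions beyond 0.5 on this scale, a ratio of 1.41, are called strongly higher or strongly lower at 8 h.

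NODAL and Activin bind receptors that phosphorylate SMAD2 and SMAD3, which join SMAD4 and enter the nucleus. The SMADs bind DNA weakly through a short site and rely on partners such as FOXH1, and in the early embryo the pathway induces mesendoderm genes such as Eomes and its own inhibitors Lefty1, Lefty2 and Smad7. WNT ligands stabilise β-catenin, which binds TCF and LEF factors at the letters CTTTGAT, and targets such as Axin2, Sp5 and Nkd1 feed back on the WNT pathway. Wnt3 and NODAL act together when the primitive streak forms.

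The strongly higher regions carried the TCF/LEF letters more often than shared regions at large, and the strongly lower regions carried OTX/GSC letters more often. The sequences below are shown for that reason. Each is the central 200 bases of a region in mm10, plus strand, from the reference genome, with TCF/LEF letters (CTTTGAT or ATCAAAG), SMAD sites (CAGAC or GTCTG), POU5F1 octamers (ATTTGCAT or ATGCAAAT) and OTX/GSC letters (TAATCC or GGATTA) in capitals. The first 7 are from regions higher at 8 h. Those nearest Prr30, Has2, Ppp3ca and Dkk1 are among the 10 with the highest ratio. Those near Nkd1, Wnt3 and Cfc1 lie by genes of the WNT and NODAL lists. The 7 are picked examples and do not show how common the letters are. TCF/LEF letters were in 10.6% of strongly higher regions and in 19.4% of those above a log2 ratio of 1.
Prr30, chr14:101269191-101269390: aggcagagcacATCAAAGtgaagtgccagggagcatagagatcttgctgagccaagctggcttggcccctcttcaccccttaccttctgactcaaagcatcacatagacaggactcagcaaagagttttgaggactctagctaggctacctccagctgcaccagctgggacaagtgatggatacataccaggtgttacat
Has2, chr15:56391931-56392130: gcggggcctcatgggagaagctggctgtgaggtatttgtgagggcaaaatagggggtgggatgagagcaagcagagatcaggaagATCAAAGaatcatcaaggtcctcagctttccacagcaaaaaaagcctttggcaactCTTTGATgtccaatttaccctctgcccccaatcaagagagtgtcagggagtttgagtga
Ppp3ca, chr3:136909658-136909857: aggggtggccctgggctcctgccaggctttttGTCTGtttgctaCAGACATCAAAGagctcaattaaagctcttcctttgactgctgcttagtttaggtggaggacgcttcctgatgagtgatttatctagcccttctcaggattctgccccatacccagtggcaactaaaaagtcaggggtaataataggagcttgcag
Dkk1, chr19:30461840-30462039: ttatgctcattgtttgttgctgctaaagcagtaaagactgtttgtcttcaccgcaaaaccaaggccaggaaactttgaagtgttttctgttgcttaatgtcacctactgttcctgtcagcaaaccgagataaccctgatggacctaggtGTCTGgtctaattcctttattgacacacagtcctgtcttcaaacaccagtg
Nkd1, chr8:88495366-88495565: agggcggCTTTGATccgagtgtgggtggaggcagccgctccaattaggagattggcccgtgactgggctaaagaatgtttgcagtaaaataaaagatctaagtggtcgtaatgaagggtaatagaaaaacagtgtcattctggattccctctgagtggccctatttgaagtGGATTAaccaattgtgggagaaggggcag
Wnt3, chr11:103798643-103798842: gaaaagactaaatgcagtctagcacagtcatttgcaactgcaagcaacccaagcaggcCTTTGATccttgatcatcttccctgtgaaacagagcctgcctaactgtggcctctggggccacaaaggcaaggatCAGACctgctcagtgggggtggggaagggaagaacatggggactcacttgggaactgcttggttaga
Cfc1, chr1:34533307-34533506: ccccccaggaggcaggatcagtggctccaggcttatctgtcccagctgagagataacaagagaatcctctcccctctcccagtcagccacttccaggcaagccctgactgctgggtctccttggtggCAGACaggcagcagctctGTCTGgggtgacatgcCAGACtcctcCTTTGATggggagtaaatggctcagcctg

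The last 3 are from regions lower at 8 h. The region nearest Elf5 had the lowest ratio, that near Sox2 holds the OTX/GSC letters at 2 places, and that nearest Dars holds the octamer.
Elf5, chr2:103407001-103407200: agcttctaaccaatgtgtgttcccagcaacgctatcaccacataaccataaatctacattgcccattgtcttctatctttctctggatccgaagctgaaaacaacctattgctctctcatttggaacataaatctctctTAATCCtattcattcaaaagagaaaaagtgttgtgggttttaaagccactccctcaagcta
Sox2, chr3:34630297-34630496: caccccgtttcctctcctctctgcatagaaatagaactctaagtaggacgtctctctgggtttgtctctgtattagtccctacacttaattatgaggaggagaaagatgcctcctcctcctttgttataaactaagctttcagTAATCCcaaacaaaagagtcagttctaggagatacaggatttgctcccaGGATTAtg
Dars, chr1:128432878-128433077: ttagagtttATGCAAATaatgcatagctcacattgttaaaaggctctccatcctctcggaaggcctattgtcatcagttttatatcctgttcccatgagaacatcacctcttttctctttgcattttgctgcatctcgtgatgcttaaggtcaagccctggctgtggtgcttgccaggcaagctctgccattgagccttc

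Of the 182940 shared regions, 2444 were strongly higher at 8 h, 1.34%, and 1608 were strongly lower, 0.879%. The excess of higher regions grew with the size of the difference. Beyond 0.75, a ratio of 1.68, there were 435 higher and 147 lower regions, and beyond 1, a ratio of 2, there were 98 and 7. Beyond 1.25 there were 19 higher regions and 0 lower ones. These further limits were set after the values were seen. The 0.01 and 0.99 quantiles of the ratio were −0.49 and 0.54, so most accessible regions differed little between the 2 signalling states.

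**Figure D1:**
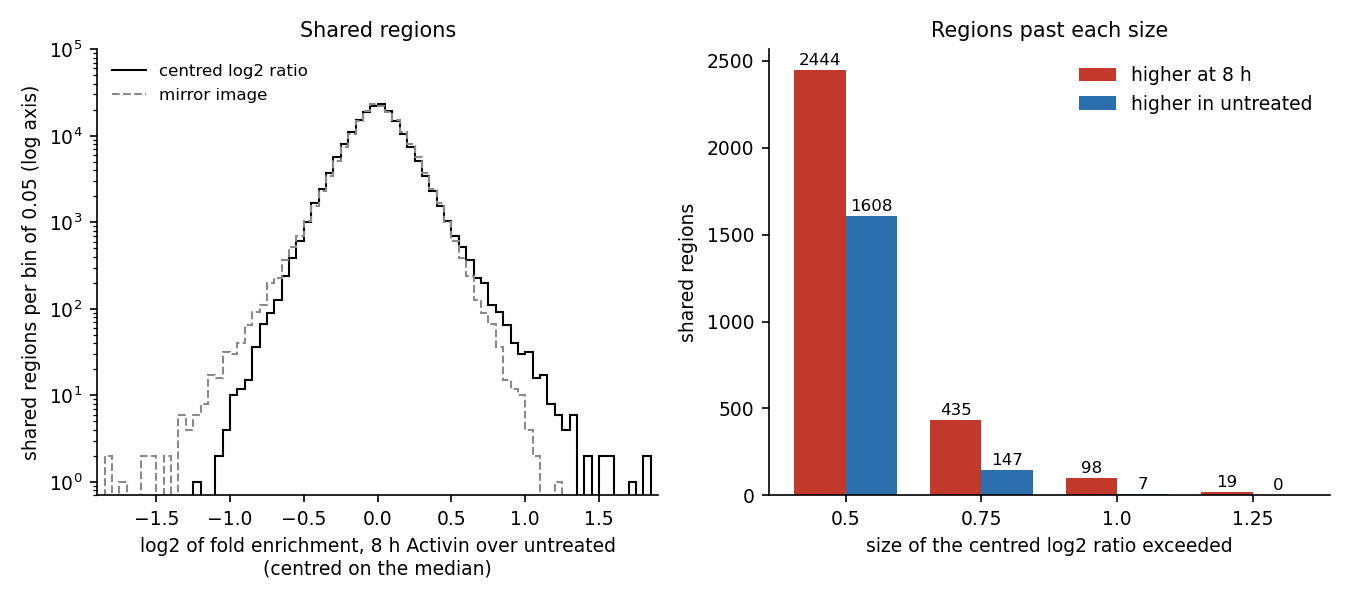
Number of shared regions (log axis) in bins of the centred log2 ratio of fold enrichment, 8 h Activin over untreated, for 1 merged list per state, with the mirror image dashed, and, as bars, the number beyond each size of the ratio in either direction. The upper end reaches 1.81 and the lower end −1.22, with 98 regions above 1 and 7 below −1.

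The strongly different regions were seldom promoters. A promoter, taken as 1000 bp before to 100 bp after the start of a coding gene, made up 5.20% of all shared regions, but 0.90% of the strongly higher and 1.00% of the strongly lower ones. Of the strongly higher regions, 56.3% were intergenic and 40.0% intronic. Their median distance from the nearest coding start site was 80.6 kb, against 61.0 kb for the strongly lower and 67.6 kb for all shared regions.

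The levels in the other 2 states show where the strong regions stood. The strongly higher regions had a median fold enrichment of 3.12 in SB-431542, 2.96 at 1 h, 4.02 at 8 h and 2.52 in untreated cells. Of the 2144 that had a peak in all 4 lists, 1706 were highest at 8 h and 1311 were lowest in untreated cells. The strongly lower regions had medians of 2.59, 2.38, 2.29 and 3.45, and 1163 of the 1305 with 4 peaks were highest in untreated cells. In inhibited cells and at 1 h the strongly higher regions thus lay between the 2 states compared, while the strongly lower regions lay near their 8 h level. Being high or low in 8 h and untreated cells is part of how these sets were chosen. The lowest background estimated in a list, a stand-in for its depth, was 21.2 cuts at 8 h and 22.7 in untreated cells, so 93.2% of the untreated value at 8 h, against 118% in SB-431542 and 109% at 1 h, and the part of depth in these levels was not tested.

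Named regions are those with the most extreme ratios among regions of −log10 q of at least 10 in 1 or both lists. Highest of all was an intergenic region at chr14:101268919-101269663, 69.2 kb upstream of Prr30. Its fold enrichment was 2.73 in SB-431542, 2.88 at 1 h, 8.03 at 8 h and 2.27 in untreated cells, a ratio of 3.54. The 8 h value stood apart from the 3 others, and the central bases printed above hold the TCF/LEF letters once. Next was a region at chr19:30461439-30462441, 87.6 kb downstream of the start of Dkk1, which encodes a secreted WNT antagonist. It measured 1.82, 1.95, 7.21 and 2.05 in the same order, a ratio of 3.53. Here too only the 8 h list was high, and the central bases hold a SMAD site and no TCF/LEF letters.

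Another pattern of levels was that of an intron of Dgkg, a diacylglycerol kinase gene, at chr16:22607979-22608825. Its fold enrichment was 4.60 in SB-431542, 5.23 at 1 h, 5.97 at 8 h and 1.82 in untreated cells, so that untreated cells were low rather than the 8 h cells high. In an intron of Negr1, which encodes a neuronal adhesion protein, there was no peak in SB-431542 and the values were 1.62 at 1 h, 5.10 at 8 h and 1.68 in untreated cells. A region 226 kb from Fam43a had no peak in SB-431542 or at 1 h, 5.34 at 8 h and 1.85 in untreated cells. In an intron of Plxdc2 the 4 values were 2.09, 1.84, 8.30 and 2.88. These 3 regions, unlike the one in Dgkg, were high in the 8 h list alone.

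An intron of Ppp3ca, the gene of a catalytic subunit of calcineurin, held a region at chr3:136909503-136910013 with values of 2.42, 2.24, 5.54 and 2.02. Its central bases have TCF/LEF letters joined directly to a SMAD site, with another SMAD site close by. A region 303 kb from Has2, the gene of a hyaluronan synthase, at chr15:56391795-56392266, measured 2.00, 2.23, 6.79 and 2.66 and holds the TCF/LEF letters at 2 places. The remaining 2 of the 10 lay near Cbln2, at 3.65, 5.20, 10.3 and 3.47, and 701 kb from Adcyap1, the gene of a neuropeptide, at 1.91, 1.69, 5.43 and 2.04. The values near Adcyap1 are means over unlike lengths. Peaks there covered 1294 bp at 8 h, but 3473, 3449 and 3576 bp in SB-431542, 1 h and untreated cells. Its centred log2 ratio was 1.40 by fold enrichment and 0.85 by estimated pileup. In all 10 regions the 8 h value was the highest of the 4.

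**Figure D2:**
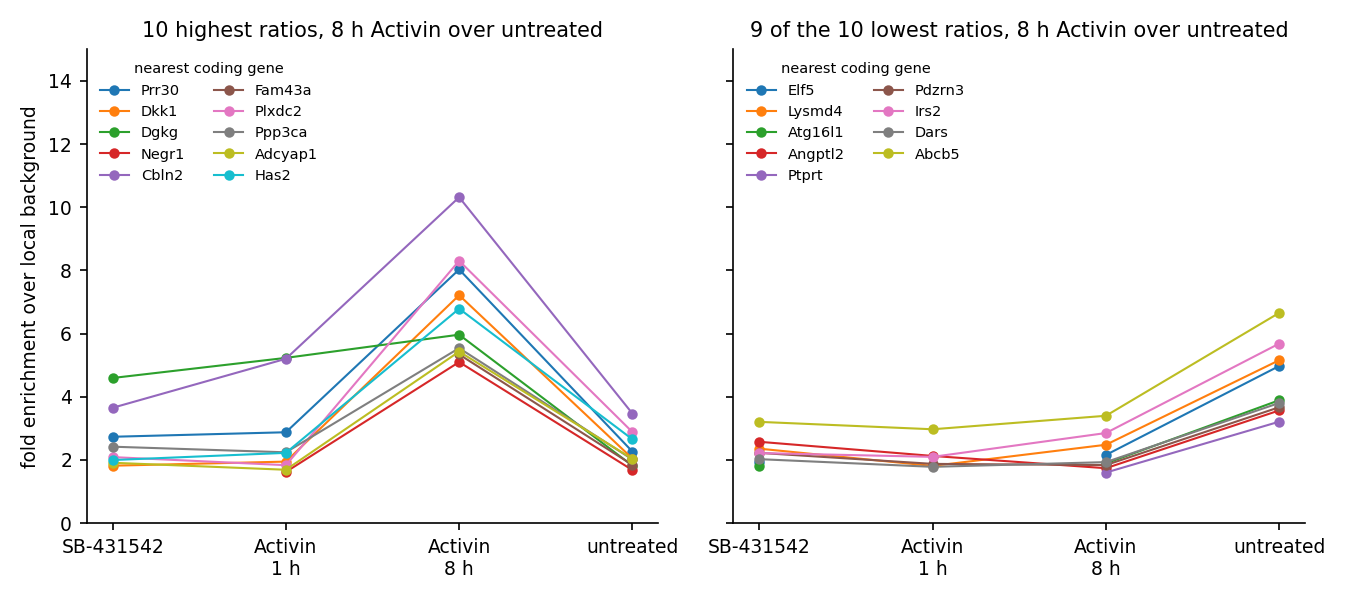
Fold enrichment in each of the 4 merged lists for the 10 regions with the highest ratio of 8 h Activin over untreated and 9 of the 10 with the lowest, named by the nearest coding gene, with no point where a list has no peak. The highest ratios come from regions that reach 5.10 to 10.3 at 8 h, while the lowest come from regions that reach 3.21 to 6.66 in untreated cells.

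The lowest ratio was that of an intergenic region at chr2:103406810-103407392, 5.00 kb upstream of Elf5, an ETS factor known from trophoblast. It measured 1.93 in SB-431542, had no peak at 1 h, and measured 2.16 at 8 h and 4.97 in untreated cells, a centred log2 ratio of −1.22. The untreated list stood apart from the others. An intron of Mef2a, whose region lies nearest the start of Lysmd4, measured 2.36, 1.81, 2.48 and 5.16 in the same order. A region 27.4 kb upstream of Irs2, the gene of an insulin receptor adaptor, measured 2.22, 2.1, 2.85 and 5.68. The region 15.6 kb upstream of Dars at chr1:128432687-128433268, which holds the octamer bound by POU5F1, measured 2.03, 1.78, 1.93 and 3.80. These 4 regions were low or without a peak in the 3 states that had met the inhibitor and high in untreated cells.

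A further 5 of the 10 were also highest in untreated cells. They lay near Atg16l1, Angptl2, Ptprt, Pdzrn3 and Abcb5, with fold enrichments of 1.60 to 3.40 at 8 h and 3.21 to 6.66 in untreated cells. The region near the transporter gene Abcb5, with the smallest difference of the 10, measured 3.21, 2.97, 3.40 and 6.66. Its peaks covered 1227 bp in untreated cells and 2192 bp in each other list. The centred log2 ratio there was −0.98 by fold enrichment and −0.58 by estimated pileup. In these 9 regions the untreated value was above the values of all other lists.

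Motif letters were counted on both strands in the central 200 bases of every region. A match is a description of sequence and not of binding. The letters were TCF/LEF CTTTGAT, ZIC CAGCAGG, SMAD site CAGAC, SMAD pair GTCTAGAC, GC-rich SMAD letters GGCGCC, FOXH1 AATCCACA, FOX TGTTTAC, OTX/GSC TAATCC, POU5F1 octamer ATTTGCAT, E-box CAGCTG, SOX ACAATG, ESRRB TCAAGGTCA and, for GATA factors, AGATAA. None of these contains another, but OTX/GSC and FOXH1 letters can overlap by the run AATCC. Intervals are 95% Wilson intervals, which cover counting error over regions of these lists only.

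TCF/LEF letters were present in 10.6% (9.44 to 11.9) of the strongly higher regions, 3.43% (3.35 to 3.51) of all shared regions and 2.36% (1.73 to 3.23) of the strongly lower ones. The share grew along the scale of differences, to 15.7% of the 337 regions between 0.75 and 1 and 19.4% (12.8 to 28.3) of the 98 above 1. It was 2.04% of the 147 regions below −0.75. Of regions with a peak in 1 list, 5.50% of those at 8 h only and 3.03% of those in untreated cells only held the letters. Median GC content was between 46.5% and 48.5% in all these sets. ZIC letters, bound by zinc-finger factors of the primed pluripotent state and the neural plate, were in 15.2% of strongly higher, 9.27% of all shared and 8.46% of strongly lower regions. TCF/LEF or ZIC letters or both were in 23.8% of the strongly higher regions and 12.4% of all shared ones.

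On the other side, OTX/GSC letters, bound by homeodomain factors such as OTX2 and GSC, were in 14.9% (13.3 to 16.8) of strongly lower, 8.10% of all shared and 8.76% of strongly higher regions. E-box letters were in 18.8%, 12.6% and 11.5% in that order, and the POU5F1 octamer in 3.98%, 2.08% and 2.17%. ESRRB letters, bound by an orphan nuclear receptor of naive pluripotent cells, were in 1.80%, 0.78% and 0.53%. FOX letters were in 4.79%, 2.89% and 2.74%. These 5 kinds of letters were most frequent where untreated cells had more accessibility.

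Letters bound by the SMADs differed between kinds. The SMAD site was in 41.0% (39.1 to 43.0) of strongly higher, 39.8% of all shared and 36.9% (34.6 to 39.3) of strongly lower regions. Its share did not grow with the rise, at 38.9% of the 435 regions beyond 0.75 and 38.8% (29.7 to 48.7) of the 98 beyond 1. The GC-rich SMAD letters GGCGCC were less frequent in both strong sets than in all shared regions, at 0.61% of strongly higher, 1.12% of strongly lower and 2.61% of all shared regions. This was not particular to SMAD letters. The GC-rich letters GGGCGGG of KLF and SP factors were in 1.76%, 2.61% and 4.28% in that order, and the strong sets also hold fewer promoters, as given above. FOXH1 letters were rare, at 1.55% (1.13 to 2.13), 0.89% and 0.75% (0.43 to 1.30). SOX letters were more frequent in both strong sets than in all shared regions, at 13.5% of higher, 14.9% of lower and 10.7% of all shared regions.

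**Figure D3:**
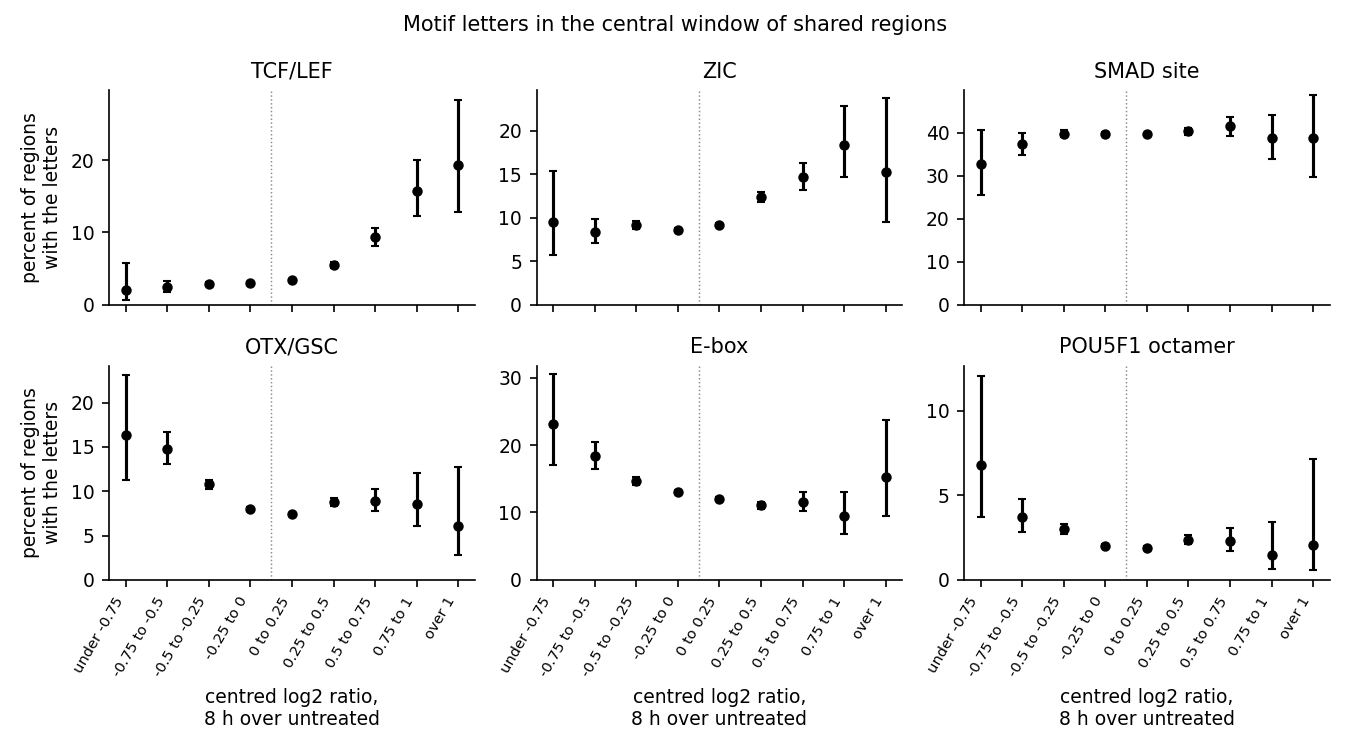
Share of shared regions (%) holding each kind of motif letters in the central 200 bases, by bins of the centred log2 ratio of 8 h Activin over untreated, with 95% Wilson intervals. TCF/LEF letters climb from 2.04% in the lowest bin to 19.4% in the highest, and OTX/GSC letters go from 16.3% to 6.12%.

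Regions with TCF/LEF letters also stood lower in the inhibited cells. The 259 strongly higher regions with the letters had median fold enrichments of 2.69 in SB-431542, 2.65 at 1 h, 4.02 at 8 h and 2.37 in untreated cells. The 2185 without them had medians of 3.15, 3.01, 4.02 and 2.54. Among regions with a peak in all 4 lists, the 8 h value was the highest in 189 of 219 with the letters, 86.3%, and in 1517 of 1925 without, 78.8%. The 240 strongly lower regions with OTX/GSC letters had medians of 2.50, 2.27, 2.25 and 3.45.

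Genes were then grouped by pathway, and regions within 50 kb of a start site were counted for each list. A region counted as higher or lower at 8 h when its percentile of fold enrichment among shared regions moved by more than 10 points between the lists. Over all shared regions 29862 were higher, 16.3%, and 30206 lower, 16.5%, and this near-balance follows largely from the use of percentiles. A gene's shift is the mean movement of its regions in percentile points. Over the 19134 coding genes with at least 3 shared regions its median was −0.55, with 5% of genes below −6.99 and 5% above 6.54. Neighbouring genes share regions, and lists of 10 to 23 genes hold few regions, so the list counts are descriptions.

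Among genes that feed back on WNT signalling, 32 of 135 shared regions were higher and 14 lower, 23.7% and 10.4%. Over all shared regions the shares were 16.3% and 16.5%. The list had 8 strongly higher regions and 1 strongly lower, where 1.34% and 0.879% of all shared regions were so. Strong counts varied between lists, with 4 and 1 for FGF and ERK feedback, 5 and 3 for naive pluripotency and 2 and 4 for mesendoderm genes. Of the 14 WNT feedback genes, 9 had a shift above 0. Sp5, a zinc-finger repressor induced by WNT, had the highest shift at 18.9 points of the listed genes with at least 3 shared regions. Of its 8 shared regions 6 were higher and none lower, and 2 more regions had a peak at 8 h only. The region 3.08 kb upstream of Sp5 had fold enrichments of 2.48 in SB-431542, 3.30 at 1 h, 3.50 at 8 h and 2.77 in untreated cells. The SB-431542 value is that of a longer peak that also reaches the region at the start site of Sp5, so it is not like for like. Its pileup was estimated at 347 against 187 cuts, 8 h against untreated. A region 23.5 kb downstream had no peak in SB-431542 or at 1 h, 3.60 at 8 h and 2.19 in untreated cells. The estimated pileup, centred like the ratio, was above 0 in all 8 shared regions of Sp5.

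Nkd1, which encodes an antagonist of Dishevelled, had 2 strongly higher regions. That at chr8:88495117-88495815, 25.9 kb upstream and holding the TCF/LEF letters, measured 3.67, 4.39, 4.70 and 1.94 in SB-431542, 1 h, 8 h and untreated cells. That 8.65 kb upstream measured 3.94, 3.60, 4.82 and 2.98. In both, untreated cells were the low state. Axin2, a scaffold of the β-catenin destruction complex, had strong regions of both directions. Those 47.7 and 22.2 kb upstream measured 4.99 and 3.56 at 8 h against 2.98 and 2.30 in untreated cells, while that 42.5 kb upstream measured 2.27 against 3.64. A region within Cdx4, a caudal homeobox gene, measured 2.79, 2.91, 5.96 and 3.31, and was high at 8 h alone.

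WNT ligands, receptors and TCF factors had 36 of 232 shared regions higher and 27 lower, 15.5% and 11.6%. Over all shared regions the shares were 16.3% and 16.5%, so the list had no excess of higher regions, but fewer lower ones. It had 7 strongly higher regions and 1 strongly lower, where 1.34% and 0.879% of all shared regions were so. Lef1, which encodes one of the DNA-binding partners of β-catenin, had the highest shift of the list at 9.41 points. Of its 18 shared regions 6 were higher and 0 lower, although 3 regions had a peak in untreated cells only. The region at one of its start sites measured 2.35, 2.31, 2.91 and 2.05. Strongly higher regions also lay near Fzd10, with 2 of them, and near Fzd7, Wnt6, Wnt8a and Wnt11. The strongly lower region was 22.0 kb upstream of Tcf7l2, at 3.19, 2.78, 2.57 and 3.77. Wnt4 had the lowest shift of the list, −12.3 points over 6 regions.

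Wnt3, a ligand of the primitive streak, had its highest ratios within its introns. The region at chr11:103798527-103798958, 24.6 kb from the start site, with TCF/LEF letters and a SMAD site in the bases printed above, measured 2.45 in SB-431542, 2.78 at 1 h, 3.34 at 8 h and 1.81 in untreated cells. Regions 29.0 and 40.9 kb from the start measured 5.38 and 2.54 at 8 h against 3.90 and 1.88. By estimated pileup these 3 regions were higher by 1.5, 1.21 and 0.89 on the log2 scale. The 2 regions farthest upstream were lower at 8 h, so that the shift of Wnt3 was 7.63 points with regions of both directions.

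**Figure D4:**
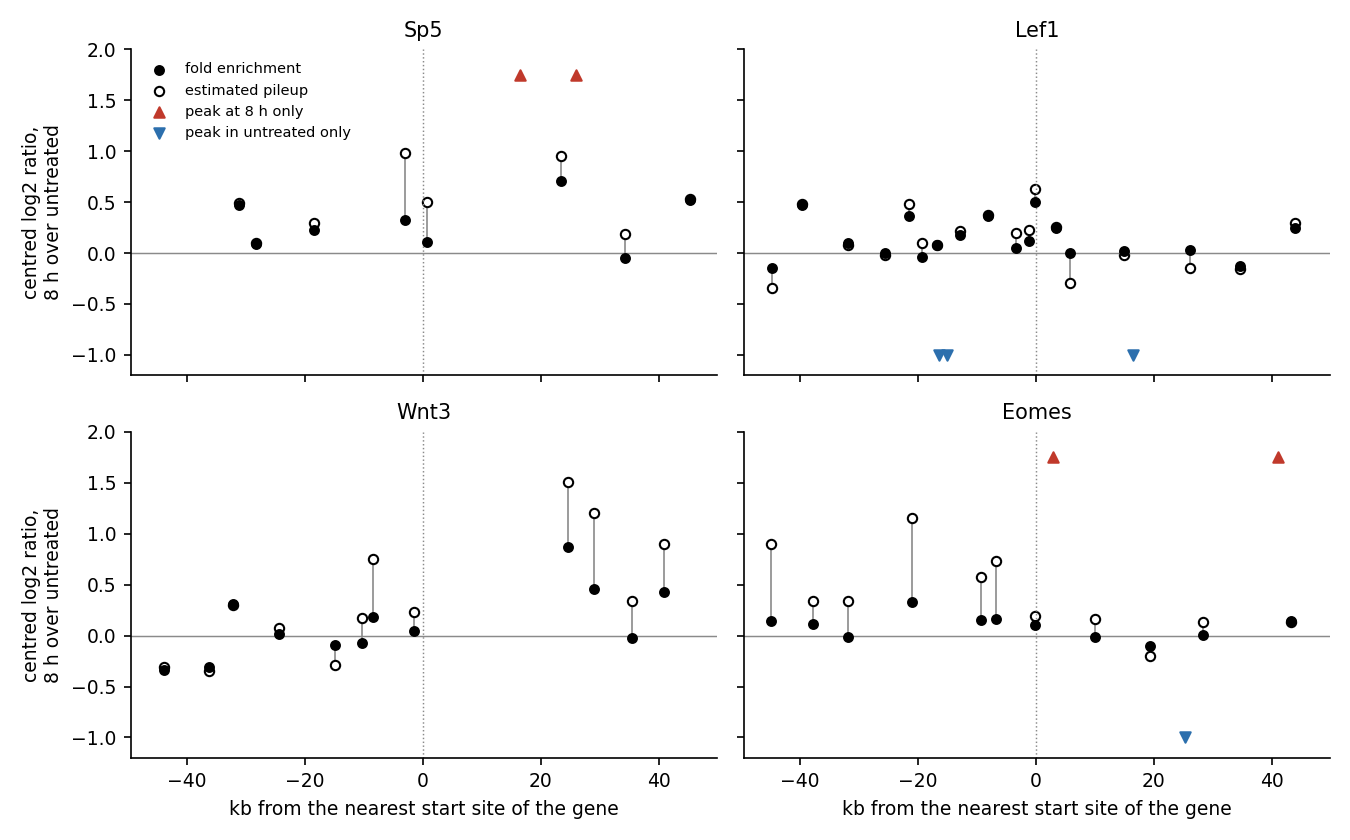
Centred log2 ratio, 8 h Activin over untreated, of fold enrichment and of estimated pileup for each shared region within 50 kb of the start sites of Sp5, Lef1, Wnt3 and Eomes, against distance from the nearest start site (kb). Triangles at a fixed height mark regions with a peak in 1 list only. Estimated pileup is above 0 in all 8 regions of Sp5 and in 10 of 11 regions of Eomes.

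Genes of the NODAL pathway itself had smaller shares of higher regions than the 16.3% of all shared regions. This was not particular to the pathway, as most lists were below that share. Housekeeping genes had 6.03%, blood genes 11.0% and muscle genes 12.1%. Among ligands and co-receptors 10 of 97 shared regions were higher and 17 lower, 10.3% and 17.5%, the latter near the 16.5% of all shared regions. A shift below 0 was found for 7 of 9 of these genes, but also for 8 of 10 muscle and 8 of 12 housekeeping genes. The median over all coding genes was itself −0.55. Nodal had the lowest shift of the ligands and co-receptors, −4.63 points, with 1 region higher and 4 lower of 13. Cfc1, which encodes a co-receptor of the Cripto family, had a strongly higher region although its shift was below 0. The region, at chr1:34533128-34533686, 2.24 kb upstream, measured 4.32, 4.49, 5.32 and 2.78, and its estimated pileup was 243 against 89.5 cuts. The promoter of Cfc1 had a peak at 8 h only among all 4 lists, with a fold enrichment of 3.74. That peak belongs to a shared region, in which the peak of untreated cells did not reach the promoter. Pcsk6, a convertase that processes NODAL, had the highest shift at 7.30 points, with a strongly higher intronic region at 3.94, 3.09, 4.14 and 2.53. Receptors and SMADs had 7 of 71 regions higher and 8 lower.

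NODAL and SMAD inhibitors had 19 of 136 shared regions higher and 19 lower, 14.0% each. Regions with a peak in untreated cells only were 31, 17.6% against 14.7% over all regions, and those at 8 h only were 9, 5.11% against 9.85%. Lefty1 and Lefty2, secreted NODAL antagonists and direct targets, had no region beyond 0.30 in either direction among those of −log10 q of at least 10. The region 3.85 kb upstream of Lefty2 measured 3.57, 3.60, 3.92 and 3.57, and that 7.13 kb from the start of Lefty1 measured 3.51, 3.48, 2.73 and 2.48. In an intron of Pmepa1, which encodes an inhibitor of SMAD2 and SMAD3, a region 18.3 kb from the start measured 2.01 in SB-431542, 3.39 at 1 h, 3.54 at 8 h and 2.33 in untreated cells. Its estimated pileup was 374 against 163 cuts. This region was high after added Activin at both times and lower in the inhibited and the untreated cells. Near Smad7, the inhibitory SMAD, a region 6.96 kb upstream measured 3.78, 4.05, 5.17 and 3.57. Of the inhibitors Dact2 had the highest shift, 7.80 points, and Smurf2 the lowest, −8.02. Lefty1, Lefty2, Pmepa1, Wnt3, Eomes, T, Smad7, Tbx3 and Trh are loci the study describes from these libraries, so they are no independent choice.

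Mesendoderm regulators had 21 of 158 shared regions higher and 18 lower, 13.3% and 11.4%. Eomes, a T-box factor induced by NODAL, had upstream regions with higher levels in both signalling states than in SB-431542, but other regions had not. The region 44.9 kb upstream measured 3.25 in SB-431542, 3.95 at 1 h, 8.08 at 8 h and 7.24 in untreated cells. Its estimated pileup was 482 against 275 cuts. In the same order the region at the start site measured 3.02, 2.79, 2.79 and 2.58, and that 28.3 kb downstream 4.68, 4.36, 4.28 and 4.22. Regions 21.0, 9.35 and 6.75 kb upstream measured 3.37, 6.20 and 2.86 at 8 h against 2.65, 5.54 and 2.53. By fold enrichment 8 of its 11 shared regions were above the median of all regions, and by estimated pileup 10 of 11. T, the Brachyury gene of the primitive streak, had regions of both directions within short range of each other. That 10.7 kb upstream measured 2.02 at 8 h and 3.20 in untreated cells, and that 13.0 kb upstream measured 3.28 and 2.36. Msgn1, a regulator of presomitic mesoderm, had the highest shift of the list at 8.94 points, with 3 of 9 shared regions higher, none lower and 3 regions at 8 h only.

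Of the remaining loci of the study, Tbx3 had regions 41.9 and 19.3 kb upstream with 3.01 and 2.92 at 8 h against 2.39 and 2.34. Trh, which encodes thyrotropin-releasing hormone, had its largest difference 37.8 kb upstream, at 5.40, 4.73, 4.14 and 5.58. Its 4 leading regions were all lower at 8 h, by −0.26 to −0.44.

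Pluripotency genes had more regions higher than lower at 8 h. The naive list had 29 of 119 higher and 19 lower, 24.4% and 16.0%, and the core and primed list 43 of 210 higher and 27 lower, 20.5% and 12.9%, with 12 of 15 genes above 0. Fgf4, a growth factor made by pluripotent cells, had a shift of 9.38 points with 5 of 15 regions higher and none lower. Klf5 had a shift of 12.7 points over 5 regions, but 0.28 over the single region within 10 kb. In the opposite direction, the region at chr3:34630155-34630638, 19.6 kb upstream of Sox2, measured 3.05, 2.83, 1.59 and 2.93, so that the 8 h list was the low one. Zfp42, a marker of the naive state also called Rex1, had a shift of −6.19 points and 8 regions with a peak in untreated cells only.

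FGF genes and ERK feedback genes had 28 of 148 shared regions higher and 20 lower. A region 45.3 kb from the start of Spry2, an ERK inhibitor, measured 7.74 in SB-431542, 5.71 at 1 h, 4.41 at 8 h and 2.3 in untreated cells, a steady descent from inhibited to untreated cells. A region 46.3 kb upstream of Fgfr3 measured 3.03, 5.01, 2.61 and 4.93, high at 1 h and in untreated cells. Fn1, the fibronectin gene of the cadherin and mesenchymal list, had a region 28.3 kb upstream with TCF/LEF letters at 2.93, 2.87, 4.82 and 2.28. Over all lists, 44 distinct strongly higher and 22 strongly lower regions with −log10 q of at least 10 lay near listed genes. TCF/LEF letters were in 11 of the 44, with an interval of 14.6% to 39.4%, and in 1 of the 22, with an interval of 0.81% to 21.8%. These 2 intervals overlap. At the same −log10 q the letters were in 10.9% of all strongly higher, 2.46% of all strongly lower and 3.29% of all shared regions. The lists include WNT genes and were chosen with earlier results of these data known.

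None of the remaining lists had a share of higher regions above the 16.3% of all shared regions. Neural plate genes had 29 higher and 24 lower of 182, with Pax3 highest at 8.40 points, BMP genes 16 and 13 of 139, and immediate early and YAP target genes 22 and 30 of 205. Housekeeping genes had 7 higher and 15 lower of 116. Blood genes had 11 and 15 of 100, muscle genes 14 and 16 of 116, and liver genes 8 and 4 of 57. Cadherin and mesenchymal genes had 9 and 13 of 78.

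**Figure D5:**
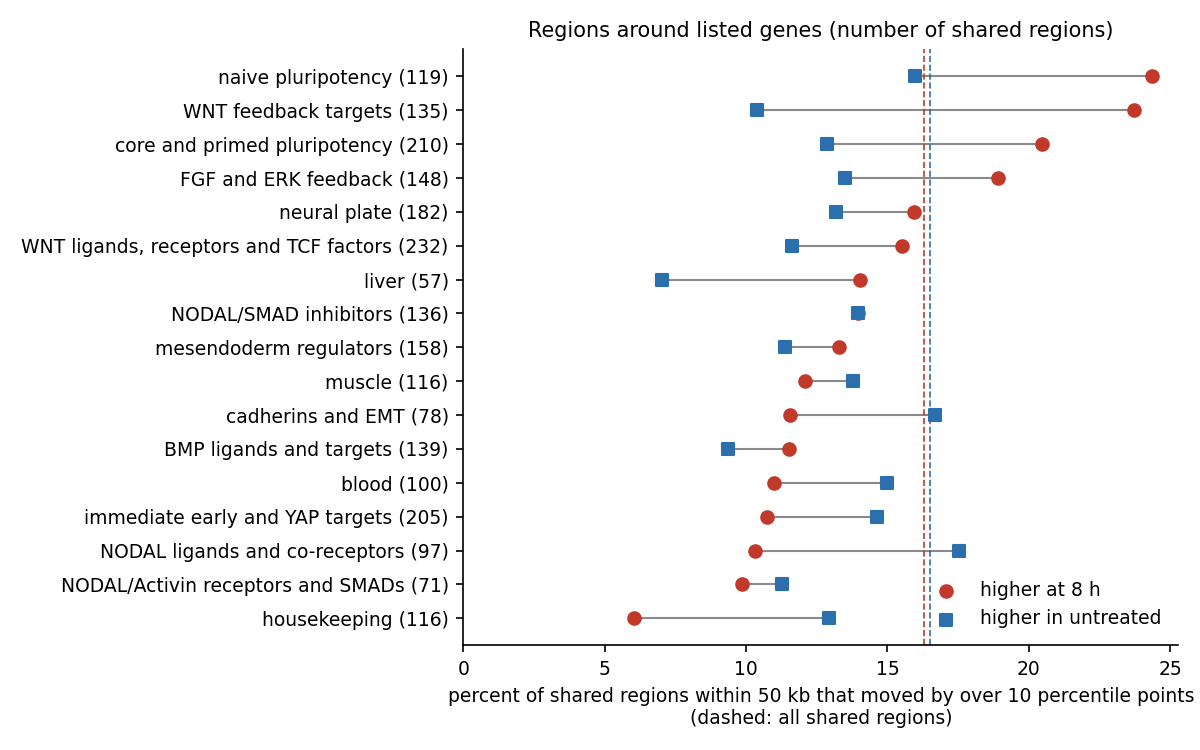
Share of shared regions within 50 kb of listed genes (%) that were higher or lower at 8 h Activin by more than 10 percentile points, by gene list, with the share over all shared regions dashed (16.3% higher, 16.5% lower). WNT feedback targets have 23.7% higher and 10.4% lower, and NODAL ligands and co-receptors 10.3% and 17.5%.

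Promoter peaks at pluripotency genes were present in both states, and few promoters separated the lists. All 15 core and primed pluripotency genes had a promoter peak at 8 h and in untreated cells, and 9 of 13 naive genes did in each. Of other cell types, 5 of 10 blood genes, 5 of 10 muscle genes, all 16 neural plate genes and 1 (8 h) or 2 (untreated) of 10 liver genes had one. Of 21000 coding promoters, 15159 had a peak in both lists, with a median fold enrichment of 4.37 at 8 h and 4.27 in untreated cells. Only 29 of them were higher and 20 lower beyond a log2 ratio of 0.5. A peak at 8 h only was found at 233 promoters, 1.11%, and in untreated cells only at 274, 1.3%. With both lists taken at equal length, by their strongest peaks, the counts turned to 269 and 234, and with −log10 q of at least 5 they were 159 and 202.

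Promoters with a peak in 1 list were mostly weak, with medians of 1.84 at 8 h and 1.86 in untreated cells. Those with the highest −log10 q at 8 h only were Pjvk, Olfr304 and Il11, at 5.09, 6.90 and 3.47. Pjvk also had a promoter peak of 4.94 at 1 h, and Il11, the gene of a cytokine, had one in SB-431542 and at 1 h. Insl3, Cd37 and Cfc1 had one at 8 h alone of the 4 lists, at 3.26, 5.14 and 3.74. In untreated cells only, the leading promoters were 1700092M07Rik, Csn1s2a and Psmb10, at 5.28, 5.10 and 3.74. Psmb10, an immunoproteasome subunit, and Metap2, a methionine aminopeptidase, had one in untreated cells alone of the 4 lists. All the promoter peaks named here belong to shared regions. Each therefore overlapped a peak of the other list that did not reach the promoter, and these promoters differ in the extent of a peak rather than in its presence.

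Regions with a peak in 1 list were weak throughout. Their median fold enrichment was 1.82 at 8 h only and 1.80 in untreated cells only, and −log10 q was under 5 in 83.6% and 82.2%. A peak of SB-431542 cells overlapped 52.4% of the regions at 8 h only and 48.0% of those in untreated cells only. The 8 h list had fewer peaks, 209212 against 220004. At equal length the counts of such regions were nearly even, but not with −log10 q of at least 5, as given above. Among the regions at 8 h only, the strongest by fold enrichment was at chr17:60789967-60790666, 1777 kb from the nearest coding gene Nudt12, at 5.82. Others were in an intron of Mir99ahg nearest Usp25 at 4.62, in an intron of Tiam2 at 4.94, where the TCF/LEF letters occur once, and 117 kb from Tmco5 at 4.75.

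The lists of leading regions by q also hold places of very high local background. The region at 8 h only nearest Calm2 had a fold enrichment of 1.09 over an estimated background of 99762 cuts, and that nearest Ccr1 one of 1.04. In untreated cells the leading regions, in Rbpms2, near Bsg and in Ptprs, had 1.21, 1.26 and 1.09. At such places the q value is extreme while the enrichment is small, and they are named by the rule only. In untreated cells only, larger enrichments were near Srsf6, a splicing factor gene, at 2.74 and in an intron of Clcn6, a chloride transporter gene, at 2.38.

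Peaks were wider in untreated cells. Median peak width was 562 bp at 8 h and 592 bp in untreated cells, and the lists covered 161 and 176 Mb. Among shared regions 6989 were at least 2 times wider at 8 h, 3.82%, and 12420 at least 2 times wider in untreated cells, 6.79%. The largest excesses of width at 8 h included a region in Fhit, 4425 bp against 1341 bp, and one 67.6 kb upstream of Cited2, 4755 bp against 1792 bp. In SB-431542 and at 1 h the widths were 3010 and 3288 bp at Fhit and 3990 and 3930 bp at Cited2, so untreated cells were the narrow state. Fold enrichment at Cited2 was 2.59 at 8 h, a mean taken over the wider peak, against 3.70. The largest differences the other way included the start of Cmtm3, 2037 bp against 6483 bp, and regions near Foxp2, 936 bp against 4980 bp. Others were near Slc6a15, 455 bp against 4464 bp, and at Prickle1, a planar cell polarity gene, 1923 bp against 5293 bp. In SB-431542 and at 1 h these regions measured 2522 and 3153 bp, 2356 and 1494 bp, 1176 and 3095 bp, and 2382 and 2159 bp in the same order. Untreated cells were the widest of the 4 states at each. At these 4 regions fold enrichment, a mean over the length of the peak, was higher at 8 h, at 3.72, 2.70, 2.04 and 3.50 against 3.01, 2.16, 1.91 and 2.98.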

How the data were processed

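P19 cells were assayed by ATAC-seq. Per the study's methods, 51-bp paired reads were trimmed with cutadapt 1.9.1, aligned to mm10 with BWA 0.6.2, merged and freed of duplicates with Picard, handled with bedtools 2.26.0, and peaks were called by MACS2 2.1.1.20160309 in broad mode without a control. The authors deposited 1 broad-peak list per state, merged over both replicates, whose columns hold fold enrichment as a ratio, −log10 of p, and a score that is the −log10 of q, each a mean over the peak. The methods name fewer sequenced samples than the labels, and total read counts are not given in the sources used here, so depth is unknown.

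Regions were the union of overlapping peaks (at least 1 bp). A region's fold enrichment was the highest of its peaks. Pileup and local background were estimated by inverting the Poisson tail of the fold enrichment and p-value. Both inputs are means over a peak, and the accuracy of the estimates for such means was not tested. Genes were RefSeq coding genes of GRCm38.p6, which has the mm10 chromosome coordinates. Motif letters were counted in the central 200 bases. Python 3.11.15, numpy 2.4.6, pandas 2.3.3 and scipy 1.17.1 were used.

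Named regions were the 10 of highest −log10 q with a peak in 1 list, the 10 with the highest and lowest ratio, the 5 that gained or lost most width, the 8 leading promoters in each direction, and the genes of highest and lowest shift in each list, together with the loci the study describes. Strong regions of −log10 q of at least 10 near listed genes were singled out besides. Members, lists and motifs were chosen with earlier results of these data known. With 1 merged list per state no test could be made. Alternatives were other thresholds, widths of windows, merging, equal list length and estimated pileup. Results at some items are not reported here.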

Additional observations from a re-analysis of the deposited data

How the results depend on the processing

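Of 50 alternative values of the main counts 40 were within 1.5 times the main value. With −log10 q of at least 5, regions at 8 h only fell to 12541 and those in untreated cells only to 20604, and regions at least 2 times wider to 2918 at 8 h and 5365 in untreated cells. With a log2 ratio beyond 0.5 in place of 10 percentile points, 2444 regions were higher and 1608 lower. With a promoter counted only where it holds the centre of a peak, 785 promoters had a peak at 8 h only and 1036 in untreated cells only. By estimated pileup, an alternative chosen after seeing the data, 4637 regions were strongly higher and 3825 strongly lower. In a window of 10 kb in place of 50 kb, the shift of Fosl2 turned to −1.16 and that of Myod1 to 3.75 points, and 8 of 32 named gene windows changed sign. The share of strongly higher regions with TCF/LEF letters was between 2.72 and 3.43 times that of all shared regions under the alternatives tried, a window of 300 bases and 4 others that were chosen after seeing the data. No paired analysis was possible because both replicates of each state are merged in 1 list. The cause of these changes was not tested.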

Other observations

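Among all coding genes with at least 8 shared regions within 50 kb, Sp5 had the third highest median shift, 15.2 points, after Adh1 with 17.1 and Olfr679 with 16.3. The lowest median shift was that of Dppa2, −15.4 points, with 6 of 9 shared regions lower at 8 h and 2 higher. Dppa4, its neighbour, had −14.3 points with 7 of 12 lower. Dppa2 and Dppa4 are DNA-binding proteins of pluripotent cells, and their windows share regions. Over the regions within 10 kb the mean shift was 0.28 for Dppa2 and −17.4 for Dppa4. Cldn10, a tight-junction gene, had 7 of 10 shared regions lower and 1 higher, and Ap3b1 6 of 10 lower and none higher. Nrip1, a nuclear receptor corepressor, had 7 of 13 lower and none higher.

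Estimated pileup and fold enrichment differed at some regions. The difference between their centred log2 ratios exceeded 0.6 in favour of pileup at 8 h in 187 shared regions of −log10 q of at least 20 and in the opposite direction in 72, limits set after the values were seen. Cfc1, Klf6, Slc6a6, Nars2 and Dock1 were nearest to 3 such regions each, and Wnt3, Eomes and Evx1 to 2 each. Near Klf6, a zinc-finger factor, the region 31.0 kb from the start had a fold enrichment of 5.77 against 3.61 but an estimated pileup of 251 against 92.3 cuts. Near Evx1, a homeobox gene of the primitive streak, the region 1.99 kb upstream had 2.44 against 1.66 and an estimated pileup of 174 against 68.2 cuts.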
